A study of Homo sapiens with 12 samples.

Results

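The effect of KDM3A depletion was compared between RD and Rh30 cells, gene by gene, to find the functions whose transcripts moved in opposite directions and those that moved in 1 line. Of 65975 gene identifiers in the expression table, 18532 averaged 1 FPKM or more over the 12 libraries and were tested for a difference. FPKM counts fragments scaled for transcript length and library size. The 9451 genes that averaged 10 FPKM or more in RD and also in Rh30 are described here. Both are rhabdomyosarcoma cell lines, RD without (FN-RMS) and Rh30 with (FP-RMS) the PAX3-FOXO1 fusion gene, and they were transduced with lentivirus carrying either Scramble, a non-targeting shRNA, or KDM3A-sh2, an shRNA against KDM3A. Each of the 4 groups (RD Scramble, RD KDM3A-sh2, Rh30 Scramble and Rh30 KDM3A-sh2) held 3 RNA-seq libraries of stably transduced cells that had been selected with puromycin. Each tumour type was represented by 1 established cell line and the depletion by 1 shRNA. RD was grown in DMEM and Rh30 in RPMI, so that an effect of the line and one of the medium cannot be told apart. Whether the 3 libraries of each group stem from separate cultures is not said in the sources used here, and p-values therefore measure a spread between libraries that may be technical. The column headers of the 3 Rh30 Scramble libraries all end in 1, whereas those of each other group are numbered 1 to 3. The sample titles number all groups as replicates 1 to 3, and what the shared ending means is not stated.

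Rhabdomyosarcoma is a childhood cancer whose cells express the myogenic factors MyoD and myogenin but do not complete muscle differentiation. In FP-RMS a chromosomal translocation joins PAX3 or PAX7 to FOXO1, and the fusion protein drives much of the tumour's transcriptional programme. FN-RMS lacks the fusion and often carries mutations that activate RAS signalling. KDM3A is a Jumonji-domain histone demethylase that removes mono- and dimethylation from lysine 9 of histone H3, a mark of repressed chromatin.

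KDM3A itself was lower with KDM3A-sh2 in both lines. It measured 35.8, 33.9 and 30.9 FPKM in the RD Scramble libraries and 12.0, 11.2 and 13.4 FPKM with KDM3A-sh2. In Rh30 it measured 27.8, 29.2 and 32.0 FPKM with Scramble and 13.7, 13.2 and 15.4 FPKM with KDM3A-sh2. The groups did not overlap in either line, and the exact two-sided permutation p was 0.1 in each, the smallest that 3 libraries against 3 can give. The log2 change was -1.39 ± 0.083 (SE) in RD and -1.02 ± 0.079 in Rh30, and the difference of 0.37 ± 0.12 had an adjusted p of 0.0387. The difference missed the threshold in 14 of the 22 alternative analyses.

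Between libraries of a group, Pearson's r of log2(FPKM + 1) over the 9451 genes lay between 0.9911 and 0.9943. The summed FPKM was 1222915 to 1254376 in RD Scramble and 1198300 to 1218249 in RD KDM3A-sh2, and 1331935 to 1350414 in Rh30 Scramble and 1339589 to 1379197 in Rh30 KDM3A-sh2. Depth in reads is not given by FPKM, but the steps between low values gave relative depths of 0.89 to 1.167. They were 1.049 to 1.167 in RD Scramble and 0.89 to 1.001 in RD KDM3A-sh2. In Rh30 they were 0.999 to 1.024 with Scramble and 0.943 to 0.994 with KDM3A-sh2. The KDM3A-sh2 libraries were thus the shallower ones in both lines, and an effect of depth on the calls was not tested. Muscle markers were high in both lines, with MYOG at 173 to 192 FPKM in RD Scramble and 647 to 725 FPKM in Rh30 Scramble. TFAP2B and NOS1, markers of the PAX3-FOXO1 fusion, reached at most 0.0743 and 0.168 FPKM in RD and were at least 13.0 and 48.8 FPKM in Rh30. The leukocyte markers PTPRC, CD3E and CD14 reached at most 0.0933, 0.08 and 1.04 FPKM in any library, and the endothelial markers VWF, CDH5 and PECAM1 at most 0.308, 0.484 and 1.2 FPKM. Of the epithelial markers, CDH1 was at or near 0 (at most 0.0825 FPKM), KRT8 reached 3.69 FPKM, EPCAM reached 7.13 FPKM in Rh30 and 0.689 FPKM in RD, and KRT18 reached 4.96 FPKM in Rh30 and 47.2 FPKM in RD.

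The changes were measured on the log2(FPKM + 1) scale, which understates the change of low genes, with limma in each line and with the interaction of shRNA and line over all 12 libraries. The difference is the log2 change in Rh30 minus the log2 change in RD, so a positive difference means a higher value in Rh30 relative to RD. A gene was called at an adjusted p (Benjamini-Hochberg, over all genes tested) under 0.05. In RD 2334 of the 9451 genes rose and 2544 fell (51.6% called), and in Rh30 1597 rose and 1702 fell (34.9% called). The 1597 rises became 965 without Rh30 KDM3A-sh2 replicate 1, 1044 without replicate 2 and 1054 in an analysis of variance on log2 values. The difference was called for 3388 genes (35.8%), of which 1779 were positive (18.8%) and 1609 negative (17.0%). The called share rose with the level, from 25.9% of the genes with a mean of 10.2 to 29.6 FPKM to 46.9% of those at 68.3 FPKM or more. After rescaling all libraries to 1 common sum, 1356 differences were positive and 2038 negative, so the share of positive calls moved from 52.5% to 40.0%.

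Opposite directions, called in each line and in the difference, were seen in 465 genes (4.92%). Of these 253 rose in RD and fell in Rh30 (2.68%), and 212 fell in RD and rose in Rh30 (2.24%). A larger group of 2207 genes (23.4%) was called in 1 line and in the difference. In RD alone 735 rose (7.78%) and 860 fell (9.1%), and in Rh30 alone 308 rose (3.26%) and 304 fell (3.22%). The p of the other line missed the threshold for these genes, which does not show that the gene did not move there. Among genes with a called difference that moved the same way in both lines, 149 were up and more in RD (1.58%), 42 up and more in Rh30 (0.444%), 255 down and more in RD (2.7%) and 84 down and more in Rh30 (0.889%). The difference alone was called for 186 genes (1.97%). The Scramble and KDM3A-sh2 libraries did not overlap for 61.8% of the 9451 genes in RD and 51.8% in Rh30, which is the background for the separate groups of single genes. Most opposite changes were small. Among genes up in RD and down in Rh30 the median change was 0.29 in RD and -0.30 in Rh30, and in the reverse pattern it was -0.28 and 0.23. A change of at least 1.5-fold in each line was reached by 8 genes of the first kind and by 2 of the second, BMF and TLE3. Leaving out 1 library gave 177 to 229 genes up in RD and down in Rh30. The reverse pattern was less stable, with 105 to 183 genes. It fell to 105 without Rh30 KDM3A-sh2 replicate 1, to 123 without Rh30 KDM3A-sh2 replicate 2, and to 136 with libraries rescaled to the same sum. Beside the threshold, CCDC186 and ARID3B lay just inside with lower line means of 10.0 and 10.011 FPKM, and ARHGAP4 and HOXB9 just outside with 9.998 and 9.993 FPKM.

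**Figure D1:**
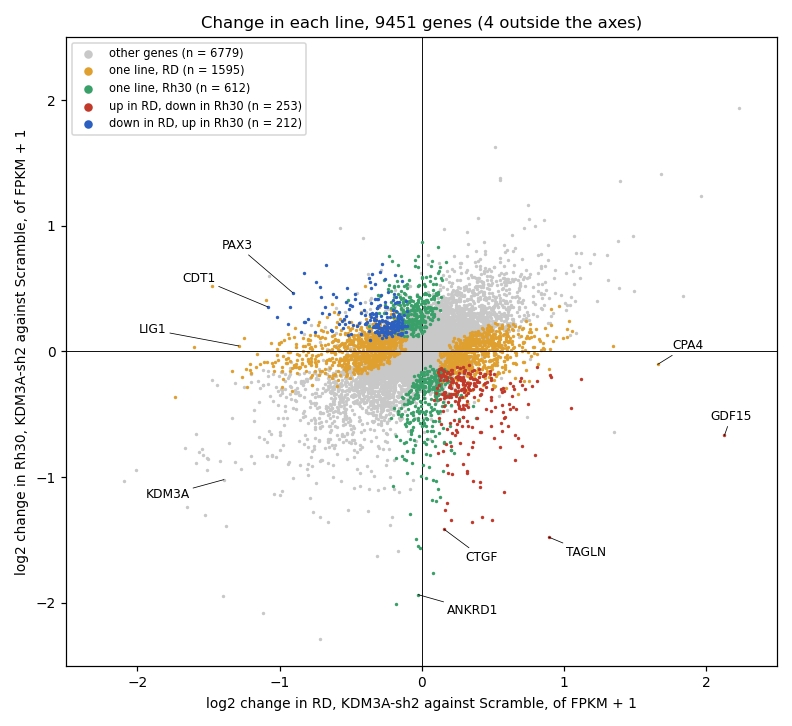
Log2 change of FPKM + 1 with KDM3A-sh2 against Scramble in RD (x axis) and Rh30 (y axis) for the 9451 genes, each point 1 gene. The 253 genes up in RD and down in Rh30 fill the lower right, the 212 genes of the reverse pattern the upper left, and genes called in 1 line lie along an axis.

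The functions were followed with 35 gene lists, which held 1150 of the 9451 genes (12.2%). They held 60 (28.3%) of the 212 genes that fell in RD and rose in Rh30, and 59 (23.3%) of the 253 that did the reverse. Over all 9451 genes the median log2 change was -0.01 in RD and 0.01 in Rh30, and the median difference was 0.02. The most negative median differences were those of the lists of amino acid synthesis, immediate early genes, matrix, the neuromuscular junction and actin, in that order. The most positive were those of mitosis, DNA replication, ribosomal proteins and myogenic factors.

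**Figure D2:**
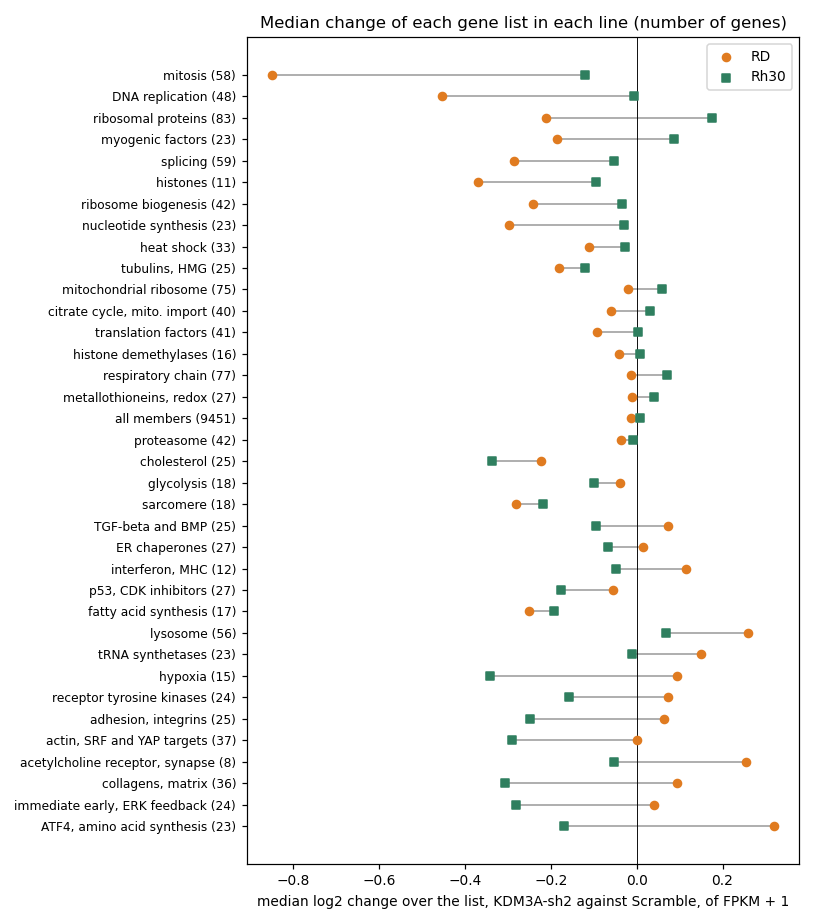
Median log2 change of FPKM + 1 with KDM3A-sh2 against Scramble over each gene list, in RD (circles) and in Rh30 (squares), with the number of genes in brackets and lists ordered by their median difference. The mitosis list sat at -0.85 in RD and -0.12 in Rh30, the ribosomal proteins at -0.21 and 0.18, and the ATF4 list at 0.32 and -0.17.

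Promoter sequences are shown for 7 genes that carry these patterns, chosen after their values were seen. They are RefSeq promoters of 300 bases on GRCh38.p14, from 250 bases before to 50 bases after the annotated start, and 6869 of the 9451 genes (72.7%) had one. The letters searched on both strands were CATTCC for TEAD factors, TGATGNAA for the amino acid response element, TTCCCGC for E2F, TTTGAA for the cell cycle homology region (CHR), CCAAT for NF-Y and CCGGAAG for ETS factors. CATTCC and TTCCCGC can overlap in 1 stretch, and the others were searched independently. In each sequence capitals mark the matches to the letters named for that gene in the text after it, matches to the other letters searched stand in lower case, and positions count from the annotated start. CTGF and ANKRD1, targets of YAP and TEAD, fell in Rh30.

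CTGF: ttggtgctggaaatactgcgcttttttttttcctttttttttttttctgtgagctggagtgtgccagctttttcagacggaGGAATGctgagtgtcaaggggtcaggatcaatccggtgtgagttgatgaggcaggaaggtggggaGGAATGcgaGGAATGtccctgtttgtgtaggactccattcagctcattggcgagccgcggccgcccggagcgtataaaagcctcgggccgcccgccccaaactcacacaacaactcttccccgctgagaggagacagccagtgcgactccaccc

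ANKRD1: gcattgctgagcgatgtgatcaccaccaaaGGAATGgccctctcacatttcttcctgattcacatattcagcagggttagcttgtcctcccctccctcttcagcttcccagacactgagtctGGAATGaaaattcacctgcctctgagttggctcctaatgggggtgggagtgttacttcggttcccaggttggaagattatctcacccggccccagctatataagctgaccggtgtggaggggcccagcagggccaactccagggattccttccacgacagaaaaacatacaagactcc

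The CTGF promoter (chr6:131951323-131951622 on the minus strand) held the TEAD letters at -169, -104 and -95, and that of ANKRD1 (chr10:90921038-90921337 on the minus strand) at -220 and -128. These letters stood in 9 of the 32 promoters of the actin, SRF and YAP list (28.1%), in 10.7% of the promoters of the 9451 genes and in 14.0% of all 27305 promoters. The CArG box, the site of SRF, was found in 7 of those 32 promoters (21.9%), in 1.12% of the promoters of the 9451 genes and in 1.29% of all promoters. The list was drawn up from targets of SRF and YAP, so high shares of these sites follow from that choice. Among genes up in RD and down in Rh30, the TEAD letters stood in 27 of 192 promoters (14.1%) and the CArG box in 4 (2.08%). ASNS and CARS, genes of amino acid supply, rose in RD.

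ASNS: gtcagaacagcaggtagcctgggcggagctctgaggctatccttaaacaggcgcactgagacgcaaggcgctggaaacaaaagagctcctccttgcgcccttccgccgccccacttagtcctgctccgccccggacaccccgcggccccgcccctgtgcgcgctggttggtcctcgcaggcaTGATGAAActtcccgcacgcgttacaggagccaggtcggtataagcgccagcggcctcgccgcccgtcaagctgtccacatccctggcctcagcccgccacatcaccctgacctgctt

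CARS: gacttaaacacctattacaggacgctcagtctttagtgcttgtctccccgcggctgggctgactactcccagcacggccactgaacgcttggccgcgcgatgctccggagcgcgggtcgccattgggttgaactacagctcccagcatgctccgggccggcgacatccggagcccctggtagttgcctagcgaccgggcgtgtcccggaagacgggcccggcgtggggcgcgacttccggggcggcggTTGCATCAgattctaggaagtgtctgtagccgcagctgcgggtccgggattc

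The ASNS promoter (chr7:97872359-97872658 on the minus strand) held the amino acid response letters at -68, and that of CARS (chr11:3057374-3057673 on the minus strand) at -2. Among genes up in RD and down in Rh30 they stood in 8 of 192 promoters (4.17%), and among the 9451 genes in 1.57%, against 3.67% of all promoters. Among genes up in RD alone, the pattern of CARS, they stood in 16 of 578 promoters (2.77%). By list, they stood in 4 of 18 promoters of the ATF4 list (22.2%) and in 6 of 19 of the tRNA synthetases (31.6%). CDT1, CENPA and RPL3 fell in RD.

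CDT1: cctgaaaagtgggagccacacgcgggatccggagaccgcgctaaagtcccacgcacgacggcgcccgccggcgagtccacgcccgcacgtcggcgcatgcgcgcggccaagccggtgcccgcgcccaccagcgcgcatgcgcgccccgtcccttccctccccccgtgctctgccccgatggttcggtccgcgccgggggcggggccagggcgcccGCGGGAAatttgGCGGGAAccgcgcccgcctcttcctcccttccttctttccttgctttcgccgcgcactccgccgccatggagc

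CENPA: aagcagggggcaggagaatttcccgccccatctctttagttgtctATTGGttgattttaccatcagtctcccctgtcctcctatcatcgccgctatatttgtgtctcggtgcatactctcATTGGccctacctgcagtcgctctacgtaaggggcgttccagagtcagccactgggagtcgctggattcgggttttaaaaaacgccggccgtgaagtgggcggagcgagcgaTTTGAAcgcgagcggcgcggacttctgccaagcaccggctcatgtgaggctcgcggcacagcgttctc

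RPL3: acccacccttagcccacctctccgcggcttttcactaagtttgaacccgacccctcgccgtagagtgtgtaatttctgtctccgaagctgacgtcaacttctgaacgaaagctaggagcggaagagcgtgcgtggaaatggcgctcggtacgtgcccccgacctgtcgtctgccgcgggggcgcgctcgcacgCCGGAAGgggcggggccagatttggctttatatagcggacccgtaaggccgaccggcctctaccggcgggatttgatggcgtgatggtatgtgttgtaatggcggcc

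The CDT1 promoter (chr16:88803539-88803838 on the plus strand) held the E2F letters at -35 and -23. They stood in 16 of the 41 promoters of the DNA replication list (39.0%), in 11.2% of the promoters of the 9451 genes and in 6.56% of all promoters. The CENPA promoter (chr2:26785806-26786105 on the plus strand) held CHR letters at -18 and CCAAT letters at -205 and -130. The mitosis list held CHR letters in 33 of 50 promoters (66.0%) and CCAAT letters in 40 (80.0%). The shares were 8.96% and 38.5% over the promoters of the 9451 genes and 15.4% and 35.7% over all promoters. The RPL3 promoter (chr22:39319574-39319873 on the minus strand) held the ETS letters at -57. The ETS letters stood in 22 of the 67 promoters of the ribosomal protein list (32.8%), in 23.3% of the promoters of the 9451 genes and in 10.7% of all promoters. The lists were drawn up by known function, so their shares need not hold for the expression patterns. Among genes down in RD alone, E2F letters stood in 96 of 622 promoters (15.4%), CHR letters in 83 (13.3%) and CCAAT letters in 298 (47.9%). These matches describe the sequence and do not show binding.

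Targets of YAP and SRF, which tie transcription to the actin cytoskeleton, held some of the largest differences among genes up in RD and down in Rh30. Of the 37 actin, SRF and YAP genes, 13 rose and 8 fell in RD, and 3 rose and 26 fell in Rh30. The difference was negative for 24 and positive for 1, beside 17.0% and 18.8% of the 9451 genes, and the median change was 0.00 in RD and -0.29 in Rh30. The negative count was 22 to 24 when any library was left out. TAGLN encodes transgelin, an actin cross-linking protein of smooth muscle. It measured 35.4, 37.4 and 36.3 FPKM in RD Scramble and 72.0, 64.9 and 68.8 FPKM in RD KDM3A-sh2. The Rh30 values were 15.8, 18.6 and 16.5 FPKM with Scramble and 5.34, 5.76 and 5.20 FPKM with KDM3A-sh2. Every KDM3A-sh2 library lay above the Scramble libraries in RD and below them in Rh30. The log2 change was 0.89 ± 0.05 in RD and -1.48 ± 0.081 in Rh30, and the difference was -2.37 ± 0.092 (adjusted p 8.73e-08).

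CTGF, a secreted matricellular protein and a standard YAP target, moved little in RD and strongly in Rh30. Its values were 208, 208 and 204 FPKM in RD Scramble and 223, 230 and 239 FPKM in RD KDM3A-sh2. They were 23.0, 21.5 and 22.8 FPKM in Rh30 Scramble and 7.72, 8.02 and 7.59 FPKM in Rh30 KDM3A-sh2. The groups were separate in both lines, with log2 changes of 0.16 ± 0.035 and -1.42 ± 0.057 and a difference of -1.57 ± 0.055 (adjusted p 7.86e-08). The other list genes that rose in RD and fell in Rh30 were ACTN1, an actinin (0.26 and -0.43), LIMA1, an actin-bundling protein (0.81 and -0.12), and WWTR1, which encodes the YAP paralogue TAZ (0.61 and -0.42). TPM1, a tropomyosin, fell in both lines, by 0.17 in RD and by 1.59 in Rh30 on the log2 scale.

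ANKRD1 and CYR61, further YAP targets, fell in Rh30 alone. ANKRD1 measured 24.6, 24.7 and 27.4 FPKM in Rh30 Scramble and 6.13, 6.26 and 5.48 FPKM in Rh30 KDM3A-sh2, a 4.3-fold lower mean. Its RD values overlapped, at 33.5, 32.3 and 35.0 FPKM with Scramble and 32.9, 32.8 and 33.2 FPKM with KDM3A-sh2. The difference of the log2 changes was -1.91 ± 0.083 (adjusted p 2.01e-07). CYR61 measured 120, 118 and 117 FPKM in Rh30 Scramble and 32.8, 34.7 and 34.9 FPKM with KDM3A-sh2, with no overlap. In RD it measured 180, 178 and 173 FPKM with Scramble and 183, 191 and 189 FPKM with KDM3A-sh2, a change of 0.08 ± 0.033 that missed the threshold (adjusted p 0.0924). The difference for CYR61 was -1.84 ± 0.047 (adjusted p 1.35e-08).

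Matrix and adhesion genes likewise had mostly negative differences, with falls in Rh30 and changes in both directions in RD. Among 36 genes of collagens and matrix, 17 rose and 13 fell in RD, 5 rose and 21 fell in Rh30, and the difference was negative for 24 and positive for 5. Among 25 integrin and adhesion genes, 11 rose and 6 fell in RD, none rose and 14 fell in Rh30, and the difference was negative for 13 and positive for 2. TNC encodes tenascin-C, a matrix glycoprotein of developing and wounded tissue. It measured 299, 316 and 306 FPKM in RD Scramble and 668, 621 and 625 FPKM in RD KDM3A-sh2. It measured 540, 530 and 562 FPKM in Rh30 Scramble and 390, 401 and 401 FPKM in Rh30 KDM3A-sh2. The lines thus changed order, with TNC higher in Rh30 with Scramble and higher in RD with KDM3A-sh2, and the difference was -1.50 ± 0.051 (adjusted p 7.86e-08). ITGB1, the beta subunit shared by many integrins, measured 314, 293 and 290 FPKM in RD Scramble against 348, 351 and 354 FPKM with KDM3A-sh2. In Rh30 its 245, 280 and 289 FPKM with Scramble stood above 196, 186 and 201 FPKM with KDM3A-sh2, and the difference was -0.71 ± 0.08 (adjusted p 0.000106).

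Of the 36 matrix genes, 7 rose in RD and fell in Rh30 (19.4%) and none did the reverse, beside 2.68% and 2.24% of the 9451 genes. Besides TNC they included enzymes that modify and remodel collagen, but not all such enzymes, since LOXL2, a lysyl oxidase that cross-links collagen, fell in both lines (-0.19 and -1.10). P4HA1, a prolyl hydroxylase of collagen, changed by 0.65 in RD and -0.44 in Rh30, and PLOD2, a lysyl hydroxylase, by 0.31 and -0.34. MMP14, a membrane-bound metalloproteinase, changed by 0.37 and -0.26, and its inhibitor TIMP2 by 0.26 and -0.45. COL5A1 changed by 0.57 and -0.29. ITGA5, the fibronectin receptor's alpha subunit, was higher with KDM3A-sh2 in RD alone, at 168, 166 and 177 FPKM against 89.1, 96.5 and 95.5 FPKM. In Rh30 ITGA5 overlapped between 66.8, 73.2 and 69.6 FPKM with Scramble and 68.2, 73.8 and 71.5 FPKM with KDM3A-sh2, and the difference was -0.83 ± 0.067 (adjusted p 9.97e-06). PLAT, tissue plasminogen activator, changed by 0.79 and -0.82. Some matrix genes went the other way: COL2A1 fell in both lines, by 2.09 in RD and by 1.03 in Rh30. Of the 4 fibroblast markers, COL1A1 and LUM were higher with KDM3A-sh2 in RD, with medians of 128 and 297 FPKM in RD Scramble and RD KDM3A-sh2 for COL1A1 and 20.2 and 71.8 FPKM for LUM. PDGFRB was not, with medians of 12.1 and 11.6 FPKM. In Rh30 COL1A1 fell from a median of 11.4 to 6.26 FPKM and PDGFRB measured 9.14 and 5.36 FPKM, whereas LUM was higher, at 1.56 to 1.91 FPKM with Scramble and 2.5 to 3.15 FPKM with KDM3A-sh2. DCN was at or below 6.93 FPKM in every library. The part of other cell types in the matrix changes was not tested.

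**Figure D3:**
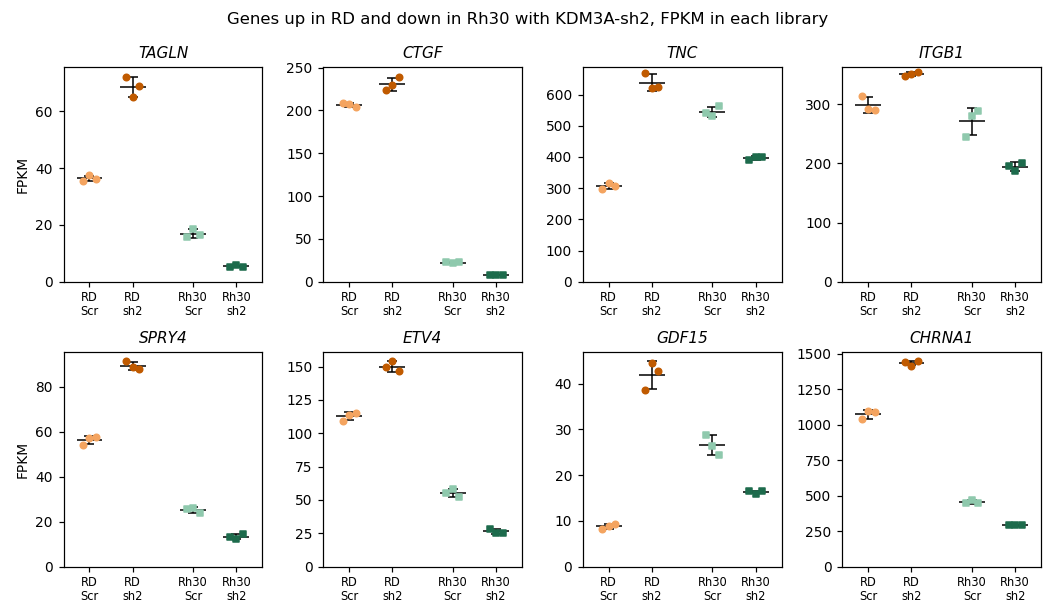
FPKM of 8 genes in each library (points) with the group mean (line) and SD (bar), n = 3 libraries a group, Scr for Scramble and sh2 for KDM3A-sh2. In every panel the KDM3A-sh2 libraries lie above the Scramble libraries in RD and below them in Rh30, with TAGLN at 64.9 to 72.0 FPKM and 5.20 to 5.76 FPKM in the KDM3A-sh2 libraries of RD and Rh30.

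Immediate early genes and the feedback inhibitors that growth factor signalling through ERK induces followed. Of 24 such genes, 11 rose (45.8%) and 7 fell (29.2%) in RD, and 2 rose (8.33%) and 17 fell (70.8%) in Rh30. The difference was negative for 14 (58.3%) and positive for 4 (16.7%). The falls in RD and the positive differences were near the 26.9% and 18.8% of all 9451 genes. The opposite pattern, up in RD and down in Rh30, held for 8 of the 24. SPRY4, a Sprouty inhibitor of receptor signalling, measured 54.3, 57.0 and 57.5 FPKM in RD Scramble and 91.3, 89.0 and 87.8 FPKM in RD KDM3A-sh2. It measured 25.6, 26.0 and 23.7 FPKM in Rh30 Scramble and 13.4, 12.4 and 14.3 FPKM in Rh30 KDM3A-sh2. No group overlapped, and the difference was -1.52 ± 0.077 (adjusted p 5.61e-07). ETV4, an ETS factor that ERK signalling induces, measured 109, 114 and 115 FPKM in RD Scramble and 149, 154 and 147 FPKM with KDM3A-sh2. In Rh30 it fell from 55.6, 57.9 and 51.9 FPKM to 28.5, 25.2 and 25.5 FPKM, and the difference was -1.45 ± 0.076 (adjusted p 6.77e-07).

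The other 6 genes of that pattern were smaller in size. They were SPRY2 (0.26 and -0.17), ETV5 (0.16 and -0.43), IER3, an early response gene of cell survival (0.25 and -0.58), PHLDA1 (0.25 and -0.27), KLF10 (0.31 and -0.31) and the MAP kinase phosphatase DUSP1 (0.21 and -0.22). DUSP6, the cytoplasmic ERK phosphatase, fell in Rh30 alone, from 66.0, 68.8 and 67.6 FPKM to 37.8, 36.9 and 32.2 FPKM. Its RD values overlapped, at 436, 434 and 420 FPKM with Scramble and 426, 434 and 441 FPKM with KDM3A-sh2 (difference -0.92 ± 0.072, adjusted p 8.22e-06). ATF3, a stress-induced factor of the same list, rose in RD alone (0.72 in RD, 0.02 in Rh30). MYC was the exception that fell in RD and rose in Rh30 (-0.11 and 0.32).

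Growth factor receptors were less uniform. Of 24 receptor tyrosine kinases, ligands and adaptors, 10 rose and 7 fell in RD, 1 rose and 11 fell in Rh30, and 12 differences were negative and 3 positive. The 10 rises became 6 without RD KDM3A-sh2 replicate 1 or 2 or with no filter on low values, and 5 in an analysis of variance on log2 values. EPHA2 (0.32 and -0.60), EPHB3 (0.26 and -0.32), FGFR1 (0.19 and -0.35), the IGF2 clearance receptor IGF2R (0.21 and -0.36) and the adaptor SHC1 (0.16 and -0.34) rose in RD and fell in Rh30. That count of 5 fell to 2 without RD KDM3A-sh2 replicate 1 or 2, and to 3 without replicate 3 or without any of the 3 RD Scramble replicates, and to 1 with no filter or in the analysis of variance on log2 values. ERBB3 moved the other way (-0.33 and 0.54). AXL, the receptor of GAS6, fell in Rh30 alone. It measured 80.6, 78.4 and 78.4 FPKM in Rh30 Scramble and 27.8, 24.0 and 27.4 FPKM in Rh30 KDM3A-sh2, a 3.0-fold lower mean. In RD it measured 115, 111 and 122 FPKM with Scramble and 120, 115 and 107 FPKM with KDM3A-sh2, and these overlapped (difference -1.53 ± 0.088, adjusted p 1.2e-06). Of the other genes the study linked to KDM3A, ETS1 fell in both lines and more in RD (-1.20 and -0.83), MCAM, LOXL2 and PLAU fell in both and more in Rh30 (differences of -0.74, -0.90 and -0.65), and the difference for FYN, -0.24 ± 0.1, was not called (adjusted p 0.106). The signs of the ETS1 and PLAU differences reversed in an analysis of variance on unlogged FPKM.

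Amino acid supply was a metabolic function with genes up in RD and down in Rh30. The list held 23 genes of amino acid synthesis and targets of ATF4, the transcription factor of the amino acid and integrated stress response. Of these 16 rose and 1 fell in RD, and 5 rose and 11 fell in Rh30. The difference was negative for 17 (73.9%) and positive for none, beside 17.0% and 18.8% of all 9451 genes. The median change was 0.32 in RD and -0.17 in Rh30. GDF15, a secreted stress cytokine and an ATF4 and p53 target, had the largest difference of the 465 opposite genes. It measured 8.20, 8.95 and 9.27 FPKM in RD Scramble and 38.5, 44.5 and 42.7 FPKM in RD KDM3A-sh2. Its level in Rh30 was 28.8, 26.5 and 24.4 FPKM with Scramble and 16.4, 16.0 and 16.5 FPKM with KDM3A-sh2. The RD libraries rose from below to above the Rh30 libraries, and the difference was -2.80 ± 0.1 (adjusted p 7.86e-08).

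ASNS, asparagine synthetase, measured 43.5, 43.3 and 43.3 FPKM in RD Scramble and 93.8, 96.2 and 96.2 FPKM in RD KDM3A-sh2. For Rh30 the values were 31.1, 31.4 and 30.1 FPKM with Scramble and 25.6, 26.2 and 27.4 FPKM with KDM3A-sh2. The groups did not overlap, and the changes were 1.12 ± 0.034 and -0.22 ± 0.047 (difference -1.34 ± 0.05, adjusted p 7.86e-08). ATF4 itself changed by 0.34 and -0.25, PSAT1 of serine synthesis by 0.24 and -0.62, and the mitochondrial folate enzymes SHMT2 and MTHFD2 by 0.32 and -0.17 and by 0.24 and -0.25. VEGFA, another member, changed by 0.32 and -0.55. The cytosolic aminoacyl-tRNA synthetases, which load amino acids onto tRNA, rose mainly in RD, where 14 of 23 rose and 1 fell. In Rh30 2 rose and 5 fell, and the difference was negative for 13 and positive for 1, for the scaffold protein AIMP2 (-0.14 and 0.14). CARS, the cysteine enzyme, rose in RD alone, from 48.5, 51.8 and 52.5 FPKM to 94.0, 98.5 and 94.0 FPKM. Rh30 cells gave 40.0, 42.7 and 41.2 FPKM with Scramble and 40.0, 36.9 and 35.5 FPKM with KDM3A-sh2, a change of -0.14 ± 0.057 (adjusted p 0.113) beside a difference of -1.03 ± 0.071 (adjusted p 3.66e-06). MARS, the methionine enzyme, changed by 0.69 and -0.23, and NARS, SARS, TARS and YARS also rose in RD and fell in Rh30, with Rh30 changes from -0.10 to -0.24. The count of 5 such synthetases fell to 2 without Rh30 Scramble replicate 1 or Rh30 KDM3A-sh2 replicate 1, to 3 without Rh30 KDM3A-sh2 replicate 2 and to 1 without Rh30 KDM3A-sh2 replicate 3.

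The muscle acetylcholine receptor, which receives the nerve's signal at the neuromuscular junction, was described with a list of 8 genes of the junction. In RD 6 rose and 1 fell, in Rh30 2 rose and 3 fell, and the difference was negative for 4 and positive for 1, for ERBB3, which fell in RD and rose in Rh30. The receptor subunits CHRNA1 (0.42 and -0.64), CHRND (0.51 and -0.69) and CHRNB1 (0.15 and -0.37) all rose in RD and fell in Rh30. CHRNA1 measured 1037, 1099 and 1087 FPKM in RD Scramble and 1441, 1417 and 1449 FPKM in RD KDM3A-sh2. The Rh30 libraries gave 449, 470 and 450 FPKM with Scramble and 291, 291 and 294 FPKM with KDM3A-sh2. The gap between the lines widened, since RD was the higher line with either shRNA (difference -1.06 ± 0.041, adjusted p 8.73e-08). DYSF, the membrane repair protein dysferlin of muscle fibres, changed by 0.41 and -1.08. In the sarcomere list of 18 genes no gene moved in opposite directions. With only genes at 10 FPKM or more in each line tested, 2 fell in RD and rose in Rh30. In the main fit 12 fell in RD (66.7%) and 10 in Rh30 (55.6%), beside 2544 and 1702 of all 9451 genes. The difference was positive for 5 and negative for 7, a called share of 66.7% beside 35.8% of all 9451 genes. MYLPF, a fast skeletal myosin light chain, fell by 0.31 in RD and by 1.63 in Rh30 on the log2 scale, and TNNC1, slow troponin C, by 1.11 and by 2.08.

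Single cell cycle and stress genes up in RD and down in Rh30 were CDKN1A, the CDK inhibitor p21 (0.26 and -0.55), CCND2, a D-type cyclin (0.29 and -0.30), and HERPUD1 of endoplasmic reticulum quality control (0.29 and -0.52). The lists were mixed. Of 27 p53 targets and CDK inhibitors, 8 rose and 6 fell in RD, and the difference was negative for 10 and positive for 6. Of 27 endoplasmic reticulum chaperone genes, the difference was negative for 8 (5 without RD KDM3A-sh2 replicate 3) and positive for 4. CCND1, another D-type cyclin, fell in Rh30 alone, from 135, 138 and 130 FPKM to 50.8, 56.2 and 55.4 FPKM. Its RD libraries overlapped, with 344, 341 and 321 FPKM in Scramble and 302, 323 and 326 FPKM in KDM3A-sh2 (difference -1.21 ± 0.068, adjusted p 9.99e-07). GADD45B, a stress sensor, showed the largest fall of this kind, from 20.8, 23.9 and 19.2 FPKM to 4.93, 4.68 and 4.01 FPKM in Rh30, a 4.7-fold lower mean. Of 25 TGF-beta and BMP signalling genes, the difference was negative for 5 and positive for 4, and 36.0% were called, near the 35.8% over all 9451 genes. The receptor TGFBR2 (0.49 and -0.38) and the activin antagonist FSTL3 (0.32 and -0.96) rose in RD and fell in Rh30, and ID1, a target of BMP signalling, did the reverse. In the hypoxia list of 15 genes, BHLHE40, a circadian and hypoxia-responsive repressor, changed by 0.21 and -1.34, and HIF1A fell in Rh30 alone (-0.02 in RD, -0.67 in Rh30). Outside the lists, CRIM1 (0.35 and -1.36), which binds BMPs, and TMEM2, a cell surface hyaluronidase (0.58 and -1.12), were among the largest differences.

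In the reverse direction, down in RD and up in Rh30, the cytosolic ribosome held the most genes of any list. Of 83 ribosomal protein genes, 54 fell and 3 rose in RD, and 50 rose and 1 fell in Rh30. The 50 rises became 29 without Rh30 Scramble replicate 1, 26 without Rh30 KDM3A-sh2 replicate 1, 31 without Rh30 KDM3A-sh2 replicate 2, 28 with no filter on low values and 32 in an analysis of variance on log2 values. The difference was positive for 70 and negative for 1, and the positive count was 64 to 71 when any library was left out. RPS27L, a p53-induced paralogue of RPS27, was the negative one (0.62 in RD, -0.05 in Rh30). The changes were small, with medians of -0.21 in RD and 0.18 in Rh30, but many libraries were separate. RPL3, a protein of the large subunit, measured 1795, 1832 and 1909 FPKM in RD Scramble and 1438, 1446 and 1332 FPKM in RD KDM3A-sh2. It measured 3073, 3169 and 2933 FPKM in Rh30 Scramble and 3535, 3647 and 3494 FPKM in Rh30 KDM3A-sh2. The groups did not overlap in either line (difference 0.61 ± 0.058, adjusted p 2.88e-05).

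RPL13A, another protein of the large subunit, measured 368, 383 and 387 FPKM in RD Scramble and 286, 289 and 263 FPKM in RD KDM3A-sh2. In Rh30 it rose from 661, 680 and 648 FPKM to 787, 789 and 758 FPKM, and the difference was 0.67 ± 0.056 (adjusted p 1.21e-05). The stalk protein RPLP0 rose by 0.41 in Rh30 and changed by -0.11 in RD. Summed over the list, ribosomal protein genes held 6.69% to 6.9% of the FPKM of RD Scramble libraries and 5.83% to 6.11% of RD KDM3A-sh2 libraries. In Rh30 the sum was 163818 to 167758 FPKM with Scramble and 178443 to 191527 FPKM with KDM3A-sh2, while the sum of all other genes was 1168117 to 1182656 and 1161146 to 1187670 FPKM. Opposite directions were called for 33 of the 83 genes. That number fell to 20 without Rh30 Scramble replicate 1, to 17 without Rh30 KDM3A-sh2 replicate 1 and to 20 without Rh30 KDM3A-sh2 replicate 2, and was 28 with libraries rescaled to the same sum, 16 with no filter on low values and 17 in an analysis of variance on log2 values. Ribosomal protein genes have many processed pseudogenes with near-identical sequence, and how reads were shared between them is not given, so single genes are uncertain. The 129 ribosomal protein pseudogenes among the 9451 genes had median changes of -0.23 in RD and 0.10 in Rh30. Ribosomal protein transcripts are short, with a median length of 1857 bases for the longest annotated transcript. The 2350 other genes no longer than that had median changes of -0.05 and 0.04 in RD and Rh30.

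Of 23 myogenic factors and regulators, 5 fell in RD and rose in Rh30 (21.7%) and none did the reverse. In RD 4 rose and 13 fell, in Rh30 10 rose and 5 fell, and the difference was positive for 15 and negative for 3. The 5 falls in Rh30 became 2 without Rh30 Scramble or KDM3A-sh2 replicate 1 and 3 without Rh30 Scramble replicate 2 or KDM3A-sh2 replicate 2 or 3. MYOG, the factor of terminal muscle differentiation, measured 173, 188 and 192 FPKM in RD Scramble and 167, 171 and 163 FPKM in RD KDM3A-sh2. Its Rh30 values were 700, 725 and 647 FPKM with Scramble and 1017, 1028 and 1006 FPKM with KDM3A-sh2. The fall in RD was near the threshold (-0.14 ± 0.046, adjusted p 0.049) and the rise in Rh30 was 0.56 ± 0.045, with a difference of 0.70 ± 0.066 (adjusted p 3.06e-05). MYOD1, which commits cells to the muscle lineage, measured 132, 136 and 133 FPKM in RD Scramble and 107, 116 and 115 FPKM with KDM3A-sh2. In Rh30 its 825, 794 and 691 FPKM with Scramble lay below 948, 910 and 933 FPKM with KDM3A-sh2 (difference 0.52 ± 0.082, adjusted p 0.000913).

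ID1, a dominant-negative partner that holds back MyoD, also fell in RD and rose in Rh30. It measured 69.3, 67.8 and 67.5 FPKM in RD Scramble and 59.6, 62.3 and 57.0 FPKM with KDM3A-sh2, and 59.5, 61.0 and 53.3 FPKM in Rh30 Scramble and 89.4, 87.6 and 88.9 FPKM with KDM3A-sh2. Every group was separate (difference 0.80 ± 0.071, adjusted p 1.96e-05). ID2 fell in RD alone (-0.89 in RD, 0.19 in Rh30). HES6, a myogenic cofactor, changed by -0.19 and 0.39, and MDFI, an inhibitor of myogenic factors, by -0.83 and 0.23. PAX3, the muscle progenitor factor, measured 16.3, 17.4 and 14.6 FPKM in RD Scramble and 9.80, 7.45 and 7.23 FPKM with KDM3A-sh2. In Rh30 it measured 54.2, 62.8 and 49.5 FPKM with Scramble and 81.5, 71.3 and 77.6 FPKM with KDM3A-sh2 (difference 1.37 ± 0.16, adjusted p 0.000145). PAX3 reads in Rh30 can come from the PAX3-FOXO1 fusion, and reads of PAX3 and of the fusion cannot be told apart in a value per gene. The count of 5 myogenic genes down in RD and up in Rh30 fell to 3 without RD KDM3A-sh2 replicate 2 or with no filter on low values, and to 2 in an analysis of variance on log2 values.

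**Figure D4:**
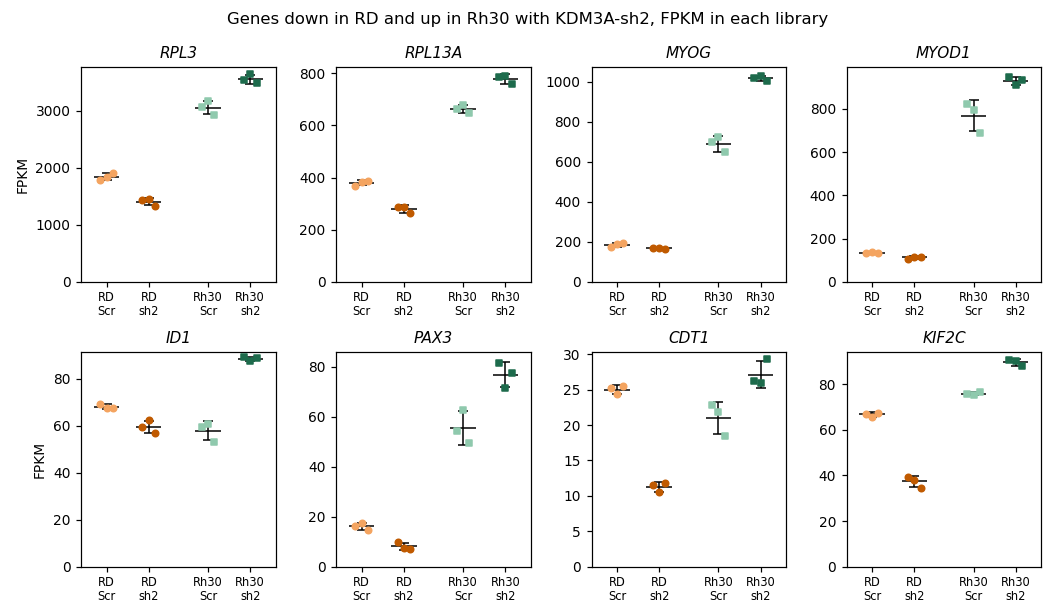
FPKM of 8 genes in each library (points) with the group mean (line) and SD (bar), n = 3 libraries a group, Scr for Scramble and sh2 for KDM3A-sh2. In every panel the KDM3A-sh2 libraries lie below the Scramble libraries in RD and above them in Rh30, with CDT1 at 10.5 to 11.8 FPKM and 25.9 to 29.3 FPKM in the KDM3A-sh2 libraries of RD and Rh30.

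Among the 58 mitosis genes 1 (1.72%) and among the 48 DNA replication genes 2 (4.17%) fell in RD and rose in Rh30. These shares were near the 2.24% of all 9451 genes. None of the genes in these lists did the reverse, beside 2.68% of all 9451 genes. CDT1 loads the replicative helicase onto origins. It measured 25.2, 24.3 and 25.5 FPKM in RD Scramble and 11.5, 10.5 and 11.8 FPKM in RD KDM3A-sh2, and 22.8, 21.8 and 18.5 FPKM in Rh30 Scramble and 26.2, 25.9 and 29.3 FPKM in Rh30 KDM3A-sh2. The KDM3A-sh2 libraries were below all Scramble libraries in RD and above them in Rh30 (difference 1.44 ± 0.11, adjusted p 7.61e-06). KIF2C, a kinesin that corrects chromosome attachment, measured 67.0, 65.7 and 67.5 FPKM in RD Scramble and 39.4, 37.9 and 34.7 FPKM with KDM3A-sh2. In Rh30 its 75.9, 75.1 and 76.7 FPKM with Scramble lay below 90.7, 90.2 and 87.8 FPKM with KDM3A-sh2 (difference 1.06 ± 0.061, adjusted p 1.19e-06). KIF18B, a kinesin of spindle microtubules (-1.02 and 0.28), PKMYT1, a kinase that inhibits CDK1 (-0.93 and 0.36), PIF1, a DNA helicase (-0.80 and 0.26), and TIMELESS of the replication fork (-0.52 and 0.13) showed the same signs.

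Other genes with this pattern spanned several functions. BMF, a pro-apoptotic BH3-only protein, measured 14.9, 16.8 and 16.8 FPKM in RD Scramble and 9.56, 7.69 and 8.81 FPKM with KDM3A-sh2. In Rh30 it measured 12.2, 10.8 and 10.8 FPKM with Scramble and 19.3, 16.1 and 18.5 FPKM with KDM3A-sh2, and its difference of 1.45 ± 0.13 was the largest of the 212 genes (adjusted p 1.99e-05). TLE3, a Groucho corepressor, changed by -0.67 and 0.68, GLI2, a transcription factor of Hedgehog signalling, by -0.62 and 0.46, and RARRES2, which encodes the chemoattractant chemerin, by -0.74 and 0.55. The mitochondrial chaperonin pair HSPD1 (-0.33 and 0.19) and HSPE1 (-0.13 and 0.20) moved together, as did the splicing proteins HNRNPF (-0.43 and 0.14) and SNRPD2 (-0.25 and 0.12).

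Cell division held the most genes of any list that were called in 1 line, as falls in RD, but it also fell in Rh30 to a smaller extent. The study reported gene sets of proliferation and cell cycle as enriched among genes down in both lines. Of 58 genes of the kinetochore, spindle and mitotic kinases, 55 fell and none rose in RD, with a median change of -0.85. In Rh30 19 fell and 2 rose, with a median of -0.12, and the count of falls dropped to 12 without Rh30 KDM3A-sh2 replicate 1 and to 11 without replicate 3. The difference was positive for 53 of the 58 and negative for none. For 33 of them the fall was called in RD alone and for 17 in both lines and more in RD, while KIF2C was the gene of opposite directions. In bulk RNA, fewer dividing cells and less of these transcripts in each cell cannot be told apart. CENPA, the histone variant that marks centromeres, measured 41.5, 38.5 and 39.1 FPKM in RD Scramble and 17.4, 19.4 and 18.6 FPKM in RD KDM3A-sh2. In Rh30 it overlapped, at 70.6, 69.1 and 75.1 FPKM with Scramble and 77.2, 77.8 and 70.0 FPKM with KDM3A-sh2 (difference 1.13 ± 0.08, adjusted p 4.49e-06). KIF20A, a kinesin of cytokinesis, changed by -1.33 in RD and by -0.15 in Rh30, where the adjusted p was 0.0548. CENPM (-1.25 and 0.10) and FAM64A (-1.16 and -0.02), a regulator of mitotic exit, were further examples.

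DNA replication genes also fell mainly in RD. Of 48, 39 fell and 1 rose in RD, with a median of -0.45. In Rh30 7 fell and 6 rose (3 rose without Scramble replicate 2 or KDM3A-sh2 replicate 2), with a median of -0.01, and the difference was positive for 37 and negative for none. LIG1 joins the fragments of the lagging strand. It measured 80.1, 85.9 and 88.4 FPKM in RD Scramble and 36.4, 33.7 and 32.4 FPKM in RD KDM3A-sh2, a 2.48-fold lower mean. Its Rh30 libraries overlapped, with 88.7, 81.9 and 93.4 FPKM in Scramble and 86.5, 91.6 and 94.0 FPKM in KDM3A-sh2 (difference 1.33 ± 0.086, adjusted p 2.34e-06). MCM10 (-1.09 and -0.08), the polymerase subunit POLD1 (-0.84 and 0.05) and the primase PRIM1 (-0.80 and 0.10) shared this pattern. Of 23 nucleotide synthesis genes, 16 fell in RD (69.6%) and 4 in Rh30 (17.4%), and the difference was positive for 11 and negative for 2. Over all 9451 genes 26.9% fell in RD. In Rh30 1702 of the 9451 fell, a share near the 17.4% of the nucleotide list. Of 11 histone genes, 9 fell in RD (81.8%) and 4 in Rh30 (36.4%), and the difference was positive for 7 and negative for none.

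RNA processing and ribosome assembly also fell mainly in RD. Of 59 splicing factors, 44 fell and 1 rose in RD, 15 fell and 6 rose in Rh30, and the difference was positive for 37 and negative for none. The 15 falls in Rh30 dropped to 7 without KDM3A-sh2 replicate 1 or 3 and to 8 without replicate 2, and the 6 rises to 2 without Scramble replicate 1 or KDM3A-sh2 replicate 1 or 2. HNRNPA1 changed by -0.52 in RD and 0.09 in Rh30. Of 42 nucleolar ribosome biogenesis genes, 28 fell and 2 rose in RD, 3 fell and 4 rose in Rh30, and 23 differences were positive. With libraries rescaled to the same sum, 14 of the 42 differences were called as positive. FBL, the nucleolar methyltransferase fibrillarin, measured 486, 482 and 467 FPKM in RD Scramble and 317, 319 and 305 FPKM in RD KDM3A-sh2. In Rh30 it overlapped between 1273, 1312 and 1318 FPKM and 1276, 1340 and 1245 FPKM (difference 0.59 ± 0.047, adjusted p 9.12e-06). NPM1, a nucleolar chaperone, changed by -0.31 and 0.09. Outside the lists, CITED1, a transcriptional coactivator, fell in RD alone, from 16.5, 17.6 and 15.7 FPKM to 4.91, 4.71 and 4.78 FPKM, a 3.46-fold lower mean.

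Lysosomal genes rose mainly in RD. Of 56, 36 rose (64.3%) and 7 fell (12.5%) in RD, and 15 rose (26.8%) and 8 fell (14.3%) in Rh30. The difference was negative for 27 (48.2%) and positive for 4 (7.14%). Over all 9451 genes 24.7% rose in RD, 16.9% rose in Rh30 and 17.0% had a negative difference. The 15 rises in Rh30 fell to 9 without Scramble replicate 1 or KDM3A-sh2 replicate 1, and the 8 falls to 5 without KDM3A-sh2 replicate 2 or 3. SMPD1, acid sphingomyelinase, rose in both lines and more in RD, from 16.8, 18.4 and 17.8 FPKM to 48.0, 49.2 and 46.7 FPKM in RD and from 16.8, 17.3 and 15.9 FPKM to 22.7, 25.4 and 24.4 FPKM in Rh30. The glycan-degrading sulfatase IDS (0.49 and -0.07) rose in RD alone, and LAMP2, a lysosomal membrane protein, rose in RD and fell in Rh30 (0.25 and -0.22). Outside the lists, CPA4, a secreted carboxypeptidase, measured 73.7, 79.3 and 75.3 FPKM in RD Scramble and 244, 236 and 247 FPKM in RD KDM3A-sh2. In Rh30 it overlapped, at 17.2, 17.4 and 16.2 FPKM and 14.6, 15.7 and 16.8 FPKM (difference -1.76 ± 0.073, adjusted p 1.5e-07).

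Genes that rose in Rh30 alone formed a smaller set with smaller changes. Within the lists they were mainly 14 ribosomal protein genes, 8 of 41 translation factors and 6 of 75 mitochondrial ribosomal protein genes. The 14 ribosomal protein genes became 8 without Rh30 Scramble replicate 1 or Rh30 KDM3A-sh2 replicate 1 and 9 without Rh30 KDM3A-sh2 replicate 2, the 8 translation factors became 5 without Rh30 KDM3A-sh2 replicate 1, and the 6 mitochondrial genes 3 without Rh30 KDM3A-sh2 replicate 1 or 2 or RD Scramble replicate 2. HOXB13, a posterior homeobox factor, measured 8.30, 9.47 and 8.13 FPKM in Rh30 Scramble and 14.8, 14.8 and 15.1 FPKM in Rh30 KDM3A-sh2. In RD it overlapped, at 14.5, 15.8 and 15.9 FPKM and 15.2, 15.2 and 14.0 FPKM (difference 0.78 ± 0.091, adjusted p 0.000134). SULF2, an extracellular heparan sulfatase, rose in Rh30 from 162, 164 and 156 FPKM to 266, 285 and 266 FPKM, and overlapped in RD between 18.7, 19.8 and 15.9 FPKM and 18.6, 12.6 and 15.0 FPKM. HMOX1, heme oxygenase, changed by -0.05 in RD and 0.68 in Rh30. With a least size of 1.5-fold required of each called change and difference, 21 genes had this pattern, 13 of them among the 308.

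**Figure D5:**
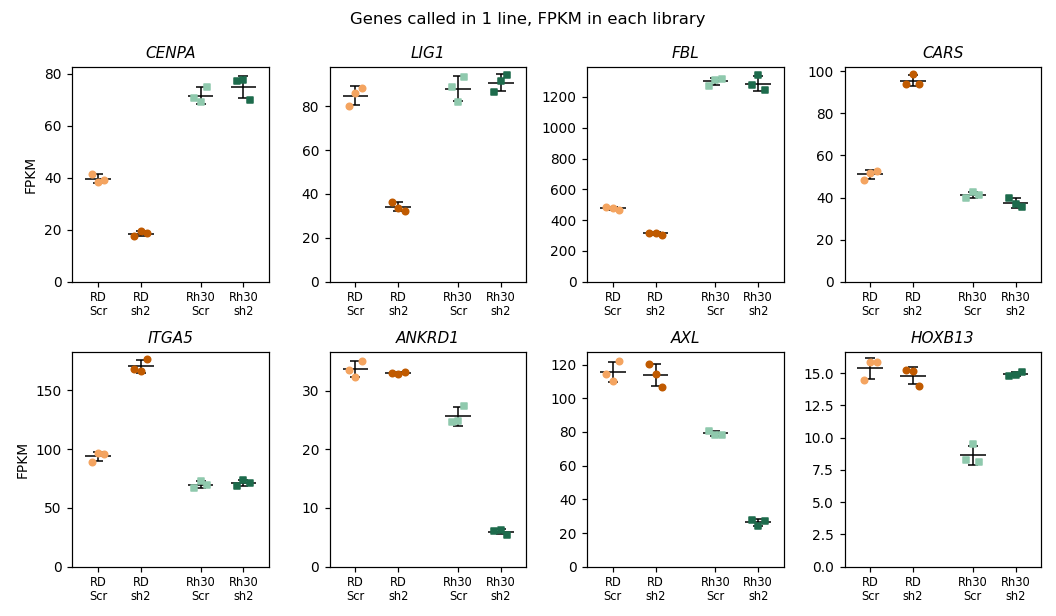
FPKM of 8 genes in each library (points) with the group mean (line) and SD (bar), n = 3 libraries a group, Scr for Scramble and sh2 for KDM3A-sh2. CENPA, LIG1 and FBL are lower and CARS and ITGA5 higher with KDM3A-sh2 in RD alone, ANKRD1 and AXL are lower in Rh30 alone (ANKRD1 at 5.48 to 6.26 FPKM against 24.6 to 27.4 FPKM), and HOXB13 is higher in Rh30 alone.

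Some other lists had few genes with a called difference or a share near that of all genes, and others lay above it. The called share was 64.0% for tubulins and high mobility group proteins and 60.0% for hypoxia, beside 35.8% of all 9451 genes. It was 59.3% for p53 targets and CDK inhibitors and 57.6% for cytosolic chaperones. With libraries rescaled to the same sum, the 16 positive differences of the chaperones became 8 and the 11 of the tubulin list became 7. Of 42 proteasome genes the difference was negative for 3 and positive for 1, and the median changes were -0.04 in RD and -0.01 in Rh30. Cholesterol synthesis fell in both lines, with 16 of 25 genes down in each, medians of -0.22 and -0.34, and no gene of opposite directions, but the difference was positive for 4 and negative for 5, a called share of 36.0% beside 35.8% of all 9451 genes. Of 77 nuclear respiratory chain genes, 14 differences were positive (18.2%) and none negative, beside 18.8% and 17.0% of all 9451 genes. The called share was thus below the 35.8% of all genes. The positive count was 9 without Rh30 KDM3A-sh2 replicate 2 or without RD Scramble replicate 3. Of 16 histone demethylase genes including KDM3A, 3 differences were positive (18.8%) and none negative, a called share also below 35.8%. A difference that missed the threshold does not show that the lines responded alike.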

How the data were processed

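RNA was measured by RNA-seq in RD and Rh30 cells with Scramble or KDM3A-sh2, 3 libraries in each of 4 groups. Per the submitters' processing notes, the authors used GSNAP, SAMtools and Cufflinks with GRCh38 and estimated FPKM per gene, so the deposited FPKM values are scaled for transcript length and for the reads of each library. The annotation release, the strand setting and the treatment of reads with several matches are not given in the sources used here, and antisense or overlapping genes cannot be told apart. The study tested genes by analysis of variance in R. Depth in reads is unknown, so no counting interval is given, and the precision of a value is shown by the spread between libraries.

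Of 66095 entries, 120 repeats of 117 identifiers were left out, keeping the entry with the higher mean. The value 999999999 was treated as missing (17 genes, 15 of them among the 9451), and such a library was left out of that gene's fit. Another 31 symbols had been turned into dates and were matched by identifier. Of the identifiers, 86.3% were in GENCODE 29. The 9451 genes held 8110 protein-coding genes and 1177 pseudogenes. log2(FPKM + 1) was fitted with limma 3.58.1 (R 4.3.3, trended variance) on genes averaging 1 FPKM or more, in the 6 libraries of each line and, for the interaction, in all 12, with Benjamini-Hochberg adjustment over all genes tested and a threshold of 0.05. Errors are standard errors. The fit was tested on simulated data with known changes. Tables and figures used Python 3.11.15, pandas 2.3.3, NumPy 2.4.6 and matplotlib 3.10.9.

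The genes and the 35 lists were chosen with earlier results of these data known. Genes were named by rule: KDM3A, the 12 largest differences of each opposite pattern and the 8 largest of each 1-line pattern among those whose groups did not overlap, up to 5 of each list, every list gene of an opposite pattern, and genes named by the study. Pseudogenes and genes with a missing value were not named. Some genes that the rule names are not reported here. Marker genes and genes beside the level threshold were given in addition. Alternatives were a pseudocount of 0.1, other filters on low values, rescaling to the same sum (TPM scale) or by median of ratios, robust variance, analysis of variance on logged and unlogged FPKM, a least size of 1.5-fold, the replicate number as a block, and leaving out each library.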

Additional observations from a re-analysis of the deposited data

Results flagged for a closer look

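The effect of KDM3A-sh2 differed between RD and Rh30, by the test of the interaction, for 3388 of the 9451 genes. Within these, 212 genes fell in RD and rose in Rh30, and 253 rose in RD and fell in Rh30; each gene of these patterns met the same test by construction. KDM3A differed as well, with a log2 change 0.37 higher in Rh30 than in RD (adjusted p 0.0387 with limma, lower with KDM3A-sh2 in 3 of 3 libraries of each line). With 3 libraries a group, single libraries were not examined as outliers.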

How the results depend on the processing

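Of 279 named genes refitted under 22 alternatives, 5863 of 6138 values kept their direction and side of the threshold, 268 lost the call and 1 gained it. The other 6 reversed in the analysis of variance on unlogged FPKM, where the difference is in FPKM: COL2A1 (-58.4), ETS1 (-9.44), IFITM3 (16.9), MYLPF (21.3), PLAU (70.8) and SLC25A5 (-33.0). The cause was not tested.

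With a least size of 1.5-fold, the difference was called for 754 genes, 382 positive and 372 negative, the opposite patterns held 8 genes up in RD and down in Rh30 and 2 of the reverse kind, and the 1-line patterns held 219 genes down in RD, 115 down in Rh30, 102 up in RD and 21 up in Rh30, as the size required allows fewer genes. The 212 genes down in RD and up in Rh30 became 100 with no filter on low values, 136 with libraries rescaled to the same sum, 98 in the analysis of variance on log2 values and 100 on unlogged FPKM; the cause was not tested.

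Leaving out 1 library gave 2918 to 3176 called differences (1507 to 1647 positive and 1393 to 1558 negative), 105 to 183 genes down in RD and up in Rh30, 177 to 229 up in RD and down in Rh30, and, in 1 line, 597 to 771 up in RD, 704 to 927 down in RD, 192 to 334 up in Rh30 and 220 to 340 down in Rh30. The lowest, 192, came without Rh30 KDM3A-sh2 replicate 1.

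The KDM3A difference was 0.31 to 0.44 when 1 library was left out and lost its call in 8 of those 12 fits. It lost it also with no filter (0.37, adjusted p 0.072), the same sum (0.32, adjusted p 0.087), analysis of variance on log2 values (0.37, adjusted p 0.0624) and on unlogged FPKM (5.83 FPKM, adjusted p 0.0714), the least size (0.37), and the replicate block (0.37, adjusted p 0.0641), and over all alternatives the adjusted p was 0.0229 to 0.087.

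With the replicate number as a block, 2691 differences were called, 1440 positive and 1251 negative, 1060 genes rose in Rh30, 156 genes rose in RD and fell in Rh30, 114 did the reverse, and 633, 812, 231 and 237 genes were up in RD, down in RD, up in Rh30 and down in Rh30 alone. Deviations of same-numbered libraries from their group means correlated at -0.2 to -0.066 in all 6 pairs, and no library correlated best with its own number. With group means of only 3 libraries, these values cannot decide whether same-numbered libraries were prepared together. With 3 libraries a group and FPKM values, small changes of low genes are the least certain, with a median standard error of the difference of 0.108 for genes with a mean of 10.2 to 29.6 FPKM and 0.0701 for those at 68.3 FPKM or more.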
